A study of Mus musculus with 49 samples.

Results

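Skin of imiquimod-treated mice given an anti-human interleukin-36 receptor antibody (IMQ anti-IL-36R, 7 libraries) was compared with skin of imiquimod-treated mice given PBS (IMQ PBS, 6 libraries). These 13 libraries were chosen by their sample titles from the 49 of the series. All the mice were of 1 mixed strain (75% C57BL/6NTac 25% 129S6/SvEvTac) and carried what the labels call the DITRA model. DITRA is deficiency of the interleukin-36 receptor antagonist, the natural inhibitor of this receptor, and the labels give neither the alleles nor the age, dose or times. Imiquimod (IMQ) is a Toll-like receptor agonist that produces psoriasis-like inflammation when put on mouse skin. The skin table also held 7 libraries of IMQ with an antibody to mouse IL-12p40 (IMQ anti-IL-12p40) and 3 of water controls with PBS, which entered the same fit. Each library was taken as 1 replicate; the labels do not say that the libraries came from separate animals, so p-values measure the spread between libraries.

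The interleukin-36 cytokines belong to the interleukin-1 family and are made largely by keratinocytes, the cells of the epidermis. They bind a receptor built from IL-36R and the accessory protein shared with interleukin-1, which signals through MyD88 to NF-kB and to MAP kinases. In skin the pathway is known for inducing neutrophil chemokines and antimicrobial proteins and for altering how keratinocytes mature into the dead outer layer, and loss of its antagonist causes generalized pustular psoriasis in people.

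Messenger RNA was counted per gene at 14.8 M to 19.6 M expected counts per library over the 13 libraries, and levels are given as CPM, counts scaled to a common TMM-adjusted library total. The words rose, fell and changed are used where the Benjamini-Hochberg adjusted p of edgeR's quasi-likelihood test for a gene was under 0.05. In the bulk tissue, fewer cells of a type and less RNA per cell cannot be told apart. On the first principal component of log2 CPM, which held 33.2% of the variance, anti-IL-36R replicates 2, 4, 5 and 6 lay at 27.1 to 51.8. Anti-IL-36R replicates 1, 3 and 7 lay at −11.2 to −2.57 and the PBS libraries at −36.4 to −12.4. On this component the antibody libraries were thus spread over a wider range than the PBS libraries, and replicate 7 lay nearest to them. Over single genes the spread was alike, with a median SD of log2 CPM of 0.205 with anti-IL-36R and 0.214 with PBS. PBS replicate 1 stood apart on the second component, at 56.7, and had the lowest TMM factor of the skin libraries, 0.833.

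The mouse gene of the receptor did not differ detectably between the groups. Il1rl2 (Entrez gene ID 107527, chromosome 1, 40324589 to 40367555) had a lowest, median and highest level of 17.8, 21.5 and 25.5 CPM with anti-IL-36R, against 18.5, 21.1 and 29.1 CPM with PBS. Its log2 fold change, anti-IL-36R over PBS, was −0.01 ± 0.09 (SE), with an adjusted p of 0.975. The groups overlapped almost entirely. Il1f5 (Entrez gene ID 54450), the mouse gene of the receptor antagonist, was counted in every library, at 454, 563 and 648 CPM with anti-IL-36R against 291, 424 and 923 CPM with PBS (log2 fold change 0.15 ± 0.21, adjusted p = 0.72). Il1rap, the shared accessory protein, had a log2 fold change of 0.11 and an adjusted p of 0.649. An antibody acts on the protein, so these levels do not check the labels. The antibody is to the human receptor and the labels do not give the alleles, so whether these counts on the mouse gene are of the receptor it binds was not tested.

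Among the ligands, Il1f9 (interleukin-36 gamma) was the one measured well enough to test, at 1.36, 2.39 and 3.48 CPM with anti-IL-36R against 0.988, 1.82 and 2.46 CPM with PBS. Its log2 fold change was 0.46 ± 0.24 and its adjusted p 0.274, on counts that were not whole. Il1f8 (interleukin-36 beta) had a median of 7 counts with anti-IL-36R and 4 with PBS, below the count filter. Il1f6 (interleukin-36 alpha) is listed at 0 counts in all 23 skin libraries, and no level is read from this, since how the authors' annotation treats the gene is not given in the sources used here. Of the 5 tested genes of the receptor, its accessory protein, ligands and relatives, 0 changed by edgeR or DESeq2, 0 had an unadjusted p under 0.05, and 1 rose by limma-voom.

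Of 15345 genes tested, 628 changed with anti-IL-36R (4.09%). Of these 492 rose (3.21%) and 136 fell (0.886%), and at an unadjusted p under 0.05 there were 3286 genes (21.4%). The genes that rose had a median absolute log2 fold change of 0.88, and 79 of them were at or above 2 on the log2 scale. Those that fell had a median of 0.68, and 11 were at or above 2. In 206 of all tested genes (1.34%) the antibody and PBS libraries did not overlap, 153 higher (0.997%) and 53 lower (0.345%). The share of rises among changed genes was 78.3%, against 55.7% with limma-voom, 68% with DESeq2, 63.5% without anti-IL-36R replicate 7 and 94% against PBS replicates 4 to 6 alone. The median log2 fold change of all tested genes was 0.00.

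A shared fall was in genes of the cornified envelope, the protein shell that replaces the membrane of dying keratinocytes. Small proline-rich proteins (SPRR) are cross-linked into this shell and are made in excess in inflamed epidermis; late cornified envelope (LCE) proteins form it too, and in people LCE3 genes are those induced in psoriasis and after injury while LCE1 genes belong to intact skin. Of 15 tested SPRR genes 10 fell, 1 rose and 4 did not pass, with a median log2 fold change of −1.21. All 6 LCE3 genes fell, with a median of −1.16. Of 14 LCE1 genes 2 rose, 0 fell and 12 did not pass, with a median of 0.56 and all 14 values above 0.

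These genes share 1 stretch of chromosome 3, the epidermal differentiation complex, here 92080271 to 93471980. This stretch was singled out after its values were seen. Of its 49 tested genes 6 rose, 16 fell and 27 did not pass. The 16 were the 10 SPRR and 6 LCE3 genes and made up 11.8% of all falls. The 6 that rose were Sprr4, Lce6a, Lce1k, Lce1m, Flg2 and 2310050C09Rik. Counts of 32 of the 49 were not whole in any library and those of 7 more in some libraries, because reads of near-identical copies were shared out among them, so single members are less certain than the family.

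**Figure D1:**
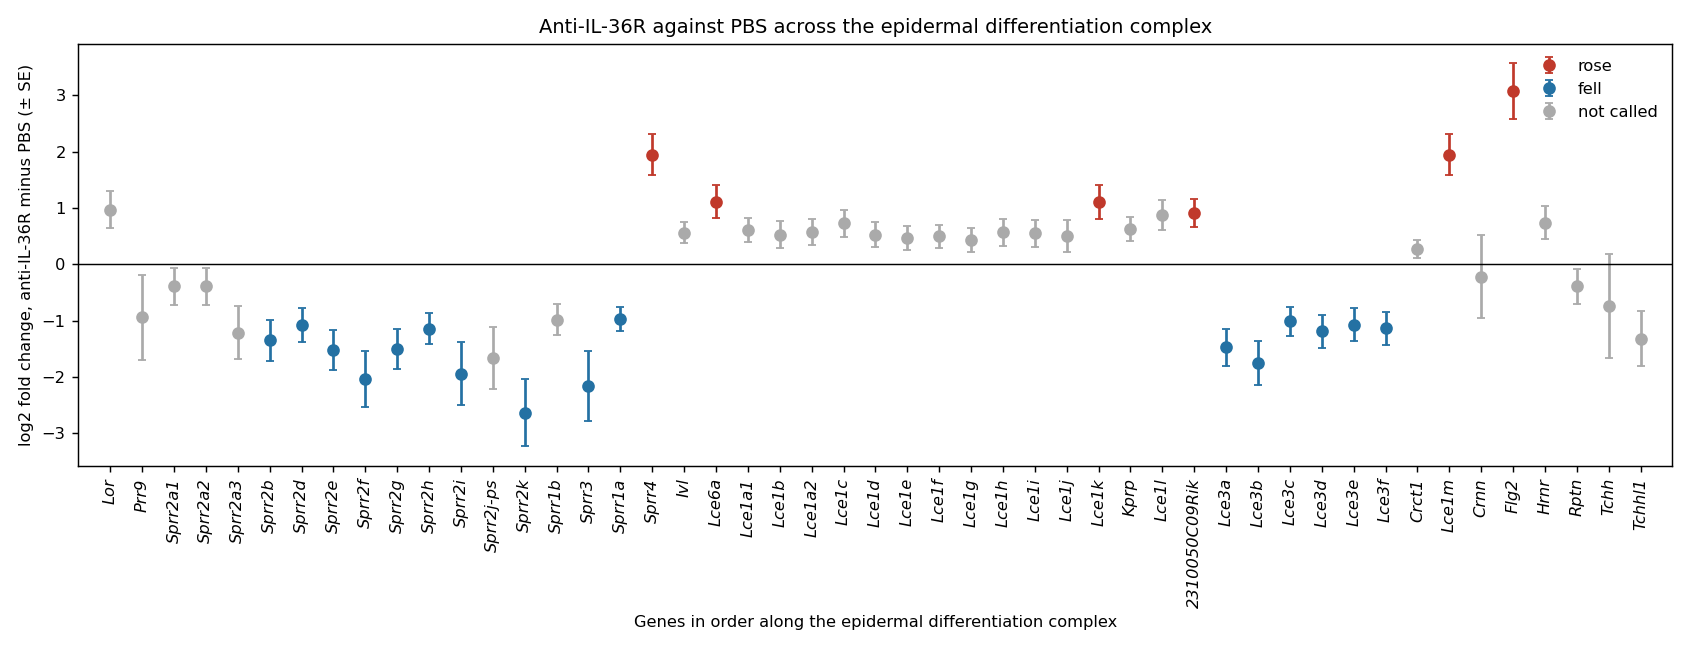
Log2 fold change, anti-IL-36R over PBS, with SE bars, for the 49 tested genes of the epidermal differentiation complex in their order on chromosome 3. The SPRR genes and, apart from them, the LCE3 genes lie below 0, while the LCE1 genes between and around them, Flg2 and Sprr4 lie above it.

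The members of the SPRR family fell by unequal amounts. Sprr2k (Entrez gene ID 20765, chromosome 3, 92432582 to 92433927) stood at 0.399, 3.01 and 12.5 CPM with anti-IL-36R, against 17.7, 21.7 and 34.7 CPM with PBS. All 7 antibody libraries lay below all 6 PBS libraries, and its log2 fold change was −2.63 ± 0.60 (adjusted p = 0.0155). Sprr2f (Entrez gene ID 20760, 92365187 to 92366442) stood at 16.3, 48.3 and 206 CPM with anti-IL-36R, against 212, 246 and 329 CPM with PBS. The groups again did not overlap, though antibody replicate 7 came close to the lowest PBS library, and the log2 fold change was −2.03 ± 0.50 (adjusted p = 0.0236).

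Sprr2e (Entrez gene ID 20759, 92352143 to 92353449) was more abundant, at 64.7, 111 and 394 CPM with anti-IL-36R against 360, 386 and 642 CPM with PBS. Here 6 of 7 antibody libraries lay below every PBS library and replicate 7 among them (log2 fold change −1.52 ± 0.36, adjusted p = 0.0187). The other members that fell were Sprr1a (−0.97), Sprr2b (−1.35), Sprr2d (−1.08), Sprr2g (−1.50), Sprr2h (−1.14), Sprr2i (−1.94, adjusted p = 0.05 when rounded) and Sprr3 (−2.16), each given as log2 fold change. Sprr3 was low, with a median of 0.255 CPM in antibody libraries and 0.693 CPM in PBS libraries. Sprr1b, at −0.98 ± 0.28, did not pass (adjusted p = 0.0508), nor did Sprr2a1 and its identical copy at −0.39 ± 0.33 or Sprr2a3 at −1.21 ± 0.47.

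Sprr4 went the other way. It stood at 14.5, 39.6 and 61 CPM with anti-IL-36R, against 5.48, 9.59 and 16.4 CPM with PBS, and 6 of 7 antibody libraries were above every PBS library. Its log2 fold change was 1.95 ± 0.37 (adjusted p = 0.00503). With IMQ against water, a comparison that shares the PBS libraries, Sprr4 had a log2 fold change of −2.7, and the 10 members that fell with the antibody had values of 1.81 (Sprr1a) to 4.05 (Sprr2i). Summed over the family, the lowest, median and highest level was 3830, 5670 and 9070 CPM with anti-IL-36R, 10100, 10500 and 16300 CPM with PBS, and 1920, 3760 and 4200 CPM in water controls.

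Promoter sequences were read for the SPRR genes because so many of them moved together. RefSeq promoters of GRCm38.p6 (250 bases before to 50 after the start) were held for 12055 tested genes, and both strands were searched for the AP-1 motif TGANTCA. It was in 7.06% of these promoters, in 13.1% of those of genes that rose and in 12.8% of those of genes that fell. Among SPRR promoters it was in 9 of 14 (64.3%), and in 8 of the 9 of members that fell; among the other 100 promoters of genes that fell it was in 6. The Sprr2 copies are related in sequence, so these matches are not independent. The windows below, written along the gene's strand with the motif in capitals, are those of members that fell, followed by Sprr1b, which did not pass, and Flg2, which rose:
Sprr1a, farther match (chr3:92486006-92486042, minus strand): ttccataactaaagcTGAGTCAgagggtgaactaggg
Sprr1a, nearer match (chr3:92485976-92486012, minus strand): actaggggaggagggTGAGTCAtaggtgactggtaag
Sprr2b (chr3:92316495-92316531, plus strand): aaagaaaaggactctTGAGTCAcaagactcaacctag
Sprr2d (chr3:92338932-92338968, plus strand): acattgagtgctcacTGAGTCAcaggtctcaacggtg
Sprr2e (chr3:92351935-92351971, plus strand): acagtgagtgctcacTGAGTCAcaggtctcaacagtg
Sprr2f (chr3:92364975-92365011, plus strand): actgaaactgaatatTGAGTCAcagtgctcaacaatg
Sprr2h (chr3:92385472-92385508, plus strand): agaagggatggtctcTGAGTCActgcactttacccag
Sprr2i (chr3:92407783-92407819, plus strand): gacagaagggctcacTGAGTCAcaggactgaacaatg
Sprr2k (chr3:92432371-92432407, plus strand): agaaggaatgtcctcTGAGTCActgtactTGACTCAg
Sprr1b (chr3:92438869-92438905, minus strand): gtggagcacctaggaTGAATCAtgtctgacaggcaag
Flg2 (chr3:93197189-93197225, plus strand): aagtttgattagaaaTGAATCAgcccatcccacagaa

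Each Sprr2 gene shown held TGAGTCA, beginning 193 to 198 bases before the start of transcription. Sprr2k held a second match in the same window, TGACTCA, beginning 182 bases before the start. Sprr2d and Sprr2e carried nearly the same window. Of the 14 SPRR promoters, those of Sprr2a1, Sprr2a2, Sprr2a3, Sprr3 and Sprr4 held no match in this stretch. A match is a run of letters and was not tested as a binding site.

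The LCE3 genes code for envelope proteins, and those of mice stand next to each other on chromosome 3. Lce3b (Entrez gene ID 66344, 92932979 to 92934096) stood at 20.6, 43.8 and 137 CPM with anti-IL-36R, against 151, 169 and 271 CPM with PBS. All antibody libraries were below all PBS libraries, with a log2 fold change of −1.75 ± 0.38 (adjusted p = 0.0125). Lce3d (−1.19) and Lce3c (−1.01) did not overlap between the groups either, Lce3c by a margin lost in rounding. Lce3a (−1.47), Lce3f (−1.13) and Lce3e (−1.07) each had 1 antibody library within the range of the PBS libraries. The family summed to 235, 356 and 804 CPM with anti-IL-36R, 801, 885 and 1270 CPM with PBS, and 72, 290 and 350 CPM in water controls.

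The LCE1 genes that rose were Lce1m, at 14, 31 and 72 CPM with anti-IL-36R against 5.25, 7.68 and 17.6 CPM with PBS (log2 fold change 1.95 ± 0.37, adjusted p = 0.00523), and Lce1k. Lce1k stood at 28.9, 33.5 and 41.7 CPM with anti-IL-36R against 4.3, 16.4 and 24.6 CPM with PBS (1.11 ± 0.30, adjusted p = 0.0389), with no overlap between the groups. Without PBS replicate 1, 13 of the 14 LCE1 genes rose, and without anti-IL-36R replicate 7, 5. With anti-IL-36R replicate 2, 4, 5 or 6 or PBS replicate 2, 3, 5 or 6 left out, 1 rose. The family summed to 869, 1370 and 1800 CPM with anti-IL-36R against 657, 782 and 1680 CPM with PBS, where the groups overlap.

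The counts of the SPRR and LCE3 families depended on the libraries. Of the SPRR genes 3 fell, rather than 10, without anti-IL-36R replicate 2, 4 without replicate 6, and 5 without replicate 4 or 5. Without PBS replicate 1, 2, 3 or 6 the number was 6. Of the LCE3 genes 2 fell, rather than 6, without anti-IL-36R replicate 2, 4 or 6, and 3 without anti-IL-36R replicate 5 or PBS replicate 1, 2, 3 or 6. By edgeR 0 of either family passed when the PBS group held only replicates 1 to 3 or only replicates 4 to 6, while fold changes stayed close: Lce3b had −1.89 and −1.60 and Sprr2e −1.70 and −1.33 on the log2 scale.

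**Figure D2:**
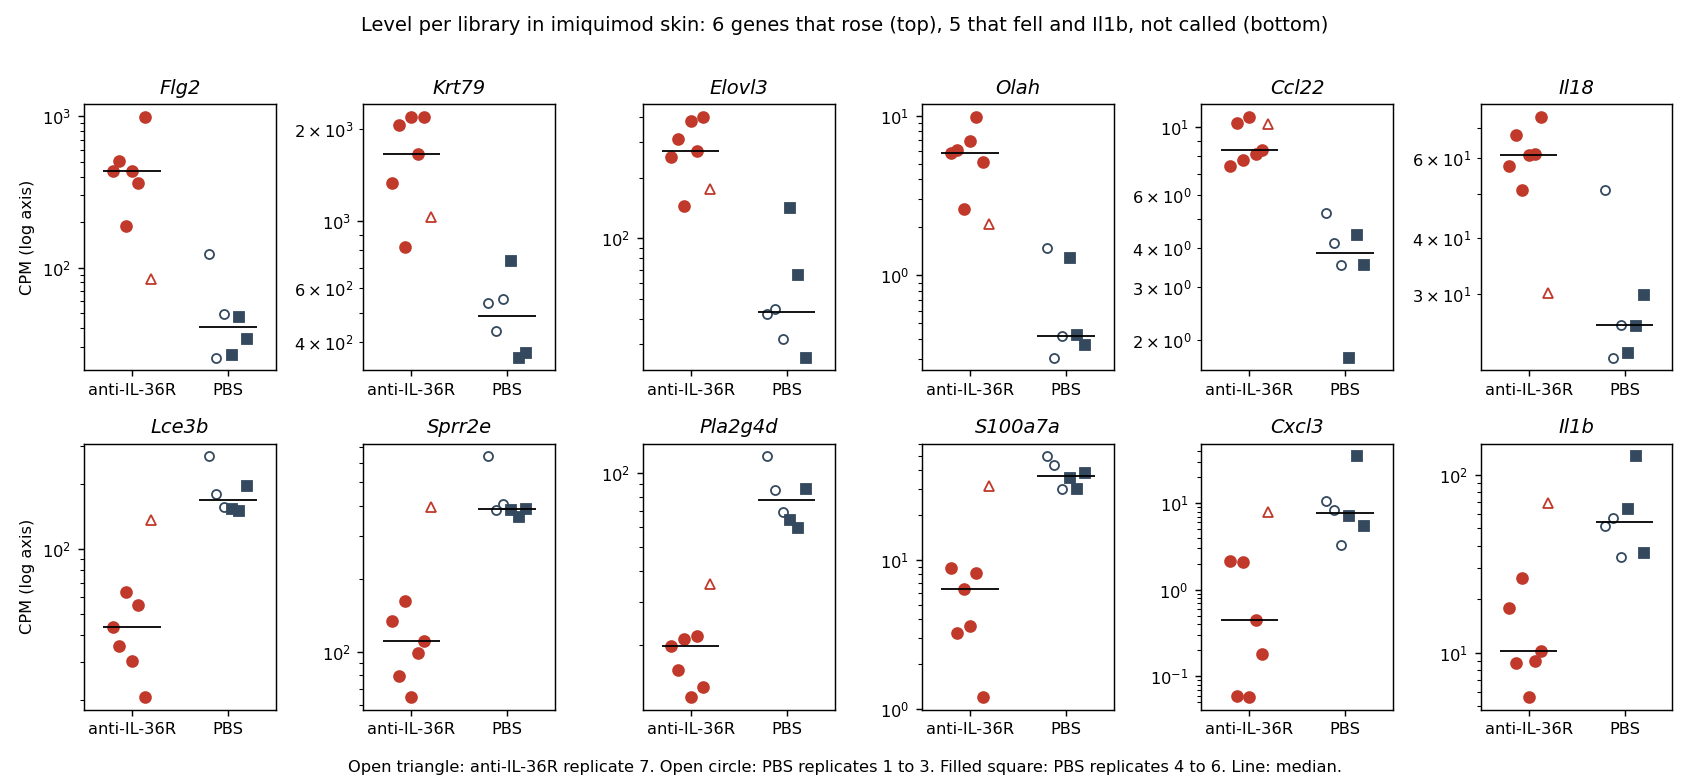
Level in every library (CPM, log axis) of 12 genes, with anti-IL-36R to the left of PBS and a line at each group's median. Open triangles mark anti-IL-36R replicate 7, open circles PBS replicates 1 to 3 and filled squares PBS replicates 4 to 6. In Flg2, Krt79, Elovl3, Olah, Ccl22 and Il18 the antibody medians are the higher ones, and in the lower panels replicate 7 is the antibody library nearest to the PBS libraries or among them.

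Some other genes of the upper epidermis rose. Flg2, filaggrin-2, a protein of the granular and cornified layers, (Entrez gene ID 229574, chromosome 3, 93197273 to 93221377) stood at 84.2, 433 and 996 CPM with anti-IL-36R, against 25.3, 40.6 and 123 CPM with PBS and 448, 1380 and 2000 CPM in water controls. In 6 of 7 antibody libraries it was above every PBS library. Its log2 fold change was 3.08 ± 0.49 (adjusted p = 0.00241), and the value of IMQ with PBS against water was −4.65. Krt77, a suprabasal keratin, stood at 1.94, 31.2 and 86.2 CPM with anti-IL-36R against 0.848, 1.17 and 2.51 CPM with PBS (4.28 ± 0.98, adjusted p = 0.016). Its antibody libraries were themselves divided, with replicates 2, 4, 5 and 6 at 31.2 to 86.2 CPM and replicates 1, 3 and 7 at 1.94 to 5.28 CPM.

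Of 28 tested genes of the cornified layer and the filaggrin family 3 rose, 0 fell and 25 did not pass, with a median log2 fold change of 0.14. Without PBS replicate 1, 8 rose, and without anti-IL-36R replicate 7, 6. The third was Krt79, a keratin of the upper hair follicle and the sebaceous duct, at 820, 1650 and 2190 CPM with anti-IL-36R against 355, 487 and 738 CPM with PBS. It did not overlap between the groups (1.69 ± 0.24, adjusted p = 0.00198). Lor, loricrin, the chief protein of the envelope, had medians of 1200 CPM with anti-IL-36R and 448 CPM with PBS but did not pass (0.97 ± 0.33, adjusted p = 0.0928); it passed without anti-IL-36R replicate 7 (adjusted p = 0.0359). Ivl, involucrin, an early envelope protein, was higher in all 7 antibody libraries than in any PBS library, at 240, 284 and 391 CPM against 146, 216 and 233 CPM with PBS, and did not pass either (0.56 ± 0.19, adjusted p = 0.0931).

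Further keratins and keratinocyte genes were among the largest rises. Krt24 stood at 0.324, 2.62 and 3.94 CPM with anti-IL-36R against 0.104, 0.158 and 0.242 CPM with PBS, with no overlap (3.69 ± 0.72, adjusted p = 0.00627). Krt15, a keratin of basal cells and of the follicle bulge, rose by 1.18 ± 0.34 (adjusted p = 0.0487), the 1 of 12 basal keratinocyte genes that passed. The median of the 12 was −0.22, with 9 values below 0. By limma-voom 5 of the 12 fell and 2 rose. By edgeR 0 of these rose without anti-IL-36R replicate 2, 4, 5 or 6 or any 1 PBS library. The stress keratins behaved otherwise: Krt6a had a median of 8060 CPM with anti-IL-36R and 13500 CPM with PBS (−0.73, adjusted p = 0.231), and Krt16 6600 CPM with anti-IL-36R and 10500 CPM with PBS (−0.66, adjusted p = 0.182). By edgeR 0 of 23 stress keratinocyte genes passed, with a median of −0.49 and 13 at an unadjusted p under 0.05. By DESeq2 5 fell and by limma-voom 11 fell and 2 rose. Without anti-IL-36R replicate 7, 6 fell and 1 rose, and without replicate 3, 3 fell.

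Of all the gene lists, the one with the most rises was that of lipid enzymes of the sebaceous gland, which secretes wax esters, triglycerides and other lipids onto skin and hair. Of 27 tested genes of the sebaceous gland and fatty acid enzymes 16 rose, 0 fell and 11 did not pass, with a median log2 fold change of 1.20, and in 8 the groups did not overlap. Members that rose elongate fatty acids (Elovl3, Elovl5, Elovl6), desaturate them (Scd1, Scd3), release them from fatty acid synthase (Olah), reduce them to fatty alcohols (Far1, Far2) or join them into waxes and other esters (Awat1, Awat2, Dgat2l6, Soat1). Fasn, Acaca and Acly, which make fatty acids from acetyl-CoA, were among the 11.

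Elovl3 (Entrez gene ID 12686, chromosome 19, 46131897 to 46135694) stood at 144, 270 and 401 CPM with anti-IL-36R, against 25.5, 43.2 and 142 CPM with PBS. The lowest antibody library was just above the highest PBS library, and the log2 fold change was 2.24 ± 0.38 (adjusted p = 0.00346). Olah (Entrez gene ID 99035, chromosome 2, 3341987 to 3366569) stood at 2.09, 5.85 and 9.87 CPM with anti-IL-36R, against 0.303, 0.418 and 1.49 CPM with PBS (2.95 ± 0.49, adjusted p = 0.00315). Dgat2l6, an acyltransferase on the X chromosome, stood at 17.2, 32.3 and 53.5 CPM with anti-IL-36R, against 2.38, 5.61 and 11.2 CPM with PBS (2.41 ± 0.37, adjusted p = 0.00198). In both of these genes every antibody library was above every PBS library.

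Scd1, the most abundant of the group named here, stood at 1140, 2580 and 3580 CPM with anti-IL-36R against 448, 718 and 1400 CPM with PBS (1.60 ± 0.29, adjusted p = 0.0043). Its neighbour Scd3 rose by 2.13 ± 0.37. Awat1, an acyl-CoA wax alcohol acyltransferase, rose by 2.20 ± 0.39, and Far2, which makes its fatty alcohol substrate, by 2.09 ± 0.41. Mc5r, a melanocortin receptor of sebocytes, was low, with medians of 1.4 CPM with anti-IL-36R and 0.577 CPM with PBS, and rose by 1.79 ± 0.47 (adjusted p = 0.0343). The group summed to 4960, 7730 and 9370 CPM with anti-IL-36R, 3420, 3740 and 4980 CPM with PBS, and 6700, 7160 and 11200 CPM in water controls. Left-out libraries gave 14 to 17 rises, PBS replicates 1 to 3 alone gave 13 and PBS replicates 4 to 6 alone gave 0. These genes serve both as markers of sebocytes and as their enzymes, and whether the antibody libraries held more sebaceous gland was not tested.

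**Figure D3:**
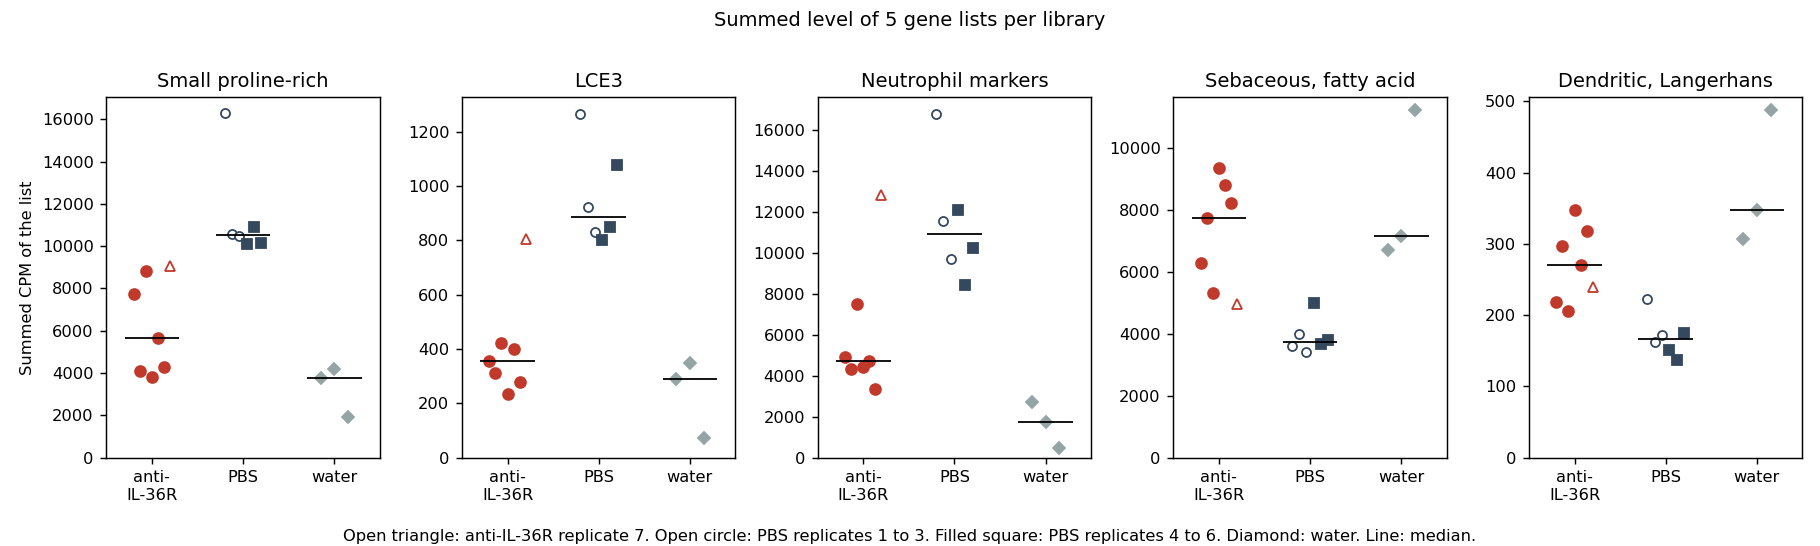
Summed level in every library (CPM, axis from 0) of 5 gene lists, with anti-IL-36R left of PBS and water controls at the right. The sebaceous genes and dendritic cell markers have their antibody medians above their PBS medians, and the SPRR, LCE3 and neutrophil lists below, with anti-IL-36R replicate 7 the highest antibody library in those 3. Epcam, which epithelium also makes, is a large part of the sum of dendritic cell markers. S100a9, which keratinocytes also make, is a large part of the sum of neutrophil markers.

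Fewer genes for the lipids of the skin barrier rose. Of 26 genes of the epidermal ceramide and lipoxygenase pathway 4 rose, 0 fell and 22 did not pass, with a median of −0.10. The 4 were Cers4, a ceramide synthase (1.82 ± 0.36), Elovl4 and Elovl7, elongases of very long and long chain fatty acids, and Alox12e, an epidermal lipoxygenase (2.03 ± 0.57, adjusted p = 0.0473). Elovl4 stood at 919, 1520 and 1990 CPM with anti-IL-36R against 708, 791 and 1080 CPM with PBS (0.83 ± 0.18, adjusted p = 0.0108). The count of 4 was 2 without anti-IL-36R replicate 2, 4, 5 or 6 or any 1 of PBS replicates 2 to 6, and 1 against PBS replicates 1 to 3 or 4 to 6 alone. Of 23 cholesterol synthesis genes 4 rose, 0 fell and 19 did not pass, with a median of 0.10. Dhcr7, which catalyses the last step to cholesterol, stood at 112, 139 and 157 CPM with anti-IL-36R against 82.2, 91.9 and 132 CPM with PBS (0.47 ± 0.11, adjusted p = 0.0176). Its groups overlapped, as did those of Msmo1, a sterol oxidase (0.40 ± 0.12, adjusted p = 0.0497). Here the count of 4 was 1 without anti-IL-36R replicate 6 or PBS replicate 3 or 5, and 2 without anti-IL-36R replicate 2, 4 or 5 or PBS replicate 2 or 6. It was 0 by edgeR against PBS replicates 1 to 3 alone and 1 against replicates 4 to 6.

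Some junction genes rose as well. Of 17 tested tight junction and epithelial adhesion genes 6 rose, 0 fell and 11 did not pass, with a median of 0.58. Cldn1, the claudin without which the epidermal barrier of mice fails, stood at 156, 182 and 236 CPM with anti-IL-36R against 103, 119 and 187 CPM with PBS. Its groups overlapped, and its log2 fold change was 0.60 ± 0.13 (adjusted p = 0.0134). Cldn3, another claudin, stood at 0, 0.852 and 1.36 CPM with anti-IL-36R and was barely counted with PBS, at 0, 0.0552 and 0.14 CPM (3.45 ± 0.79, adjusted p = 0.016). Cgn, cingulin (0.77 ± 0.20), Cldn23 (0.97 ± 0.26), Marveld2, tricellulin (0.67 ± 0.19), and Epcam (0.75 ± 0.18) were the other 4. Epcam is made by Langerhans cells as well as by epithelium and stands in both lists. The count of 6 was 2 without PBS replicate 2, and 3 without anti-IL-36R replicate 2, 4, 5 or 6 or PBS replicate 3, 4, 5 or 6. By edgeR it was 0 against PBS replicates 1 to 3 alone and 3 against replicates 4 to 6.

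Among desmosome genes 1 of 14 fell. Dsc2, desmocollin-2, stood at 17.8, 30.4 and 103 CPM with anti-IL-36R against 71.1, 155 and 180 CPM with PBS (−1.62 ± 0.36, adjusted p = 0.0144). Gjb6 (connexin 30), a protein of gap junctions induced in psoriatic epidermis in people, stood at 65.1, 135 and 299 CPM with anti-IL-36R against 303, 349 and 471 CPM with PBS, without overlap (−1.20 ± 0.30, adjusted p = 0.0264).

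Antimicrobial genes fell in part. Of 17 tested 4 fell, 1 rose and 12 did not pass, with a median of −0.44. S100a7a, the mouse relative of human psoriasin, (Entrez gene ID 381493, chromosome 3, 90651925 to 90658130) stood at 1.19, 6.35 and 31.2 CPM with anti-IL-36R against 29.7, 36.7 and 49.9 CPM with PBS. In 6 of 7 antibody libraries it was below every PBS library, and its log2 fold change was −2.07 ± 0.51 (adjusted p = 0.0234). The beta-defensins Defb3 (−2.17 ± 0.50, adjusted p = 0.0164), Defb1 (−0.88 ± 0.23) and Defb14 (−1.06 ± 0.27) fell. Defb6 rose, at 182, 255 and 354 CPM with anti-IL-36R against 73.2, 119 and 168 CPM with PBS (1.22 ± 0.24, adjusted p = 0.00626), and did not overlap between the groups. The count of 4 falls was 1 without anti-IL-36R replicate 2 or 4 or PBS replicate 2, and 2 without anti-IL-36R replicate 5 or 6 or PBS replicate 3. By edgeR it was 0 against PBS replicates 1 to 3 or 4 to 6 alone.

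Enzymes that release and convert arachidonic acid also moved both ways. Pla2g4d, a cytosolic phospholipase A2 induced in psoriatic epidermis in people, (Entrez gene ID 78390, chromosome 2, 120265866 to 120289069) stood at 12.3, 19.9 and 35.4 CPM with anti-IL-36R against 59.8, 77.4 and 117 CPM with PBS. The groups were well apart, and the log2 fold change was −2.0 ± 0.38 (adjusted p = 0.00518). The secreted phospholipase Pla2g2e rose without overlap, at 3.76, 6.37 and 9.18 CPM with anti-IL-36R against 1.36, 2.3 and 2.98 CPM with PBS (1.61 ± 0.24, adjusted p = 0.00198), and Alox5, which begins leukotriene synthesis, by 0.84 ± 0.23. The other 15 of the 18 tested genes of this group did not pass. Without anti-IL-36R replicate 7, 6 fell and 4 rose, and without replicate 1, 2 fell and 3 rose. The rises were 3 without PBS replicate 1, and 1 without anti-IL-36R replicate 2, 4, 5 or 6 or PBS replicate 2, 3 or 4.

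Neutrophil chemokines were lower in most antibody libraries but not in all. Of 9 tested chemokines and granulocyte growth factors 1 fell, 0 rose and 8 did not pass, with a median of −1.29. The 1 was Cxcl3 (Entrez gene ID 330122, chromosome 5, 90786101 to 90788093), at 0.057, 0.446 and 7.83 CPM with anti-IL-36R against 3.27, 7.69 and 35.2 CPM with PBS. Replicate 7 was the 1 antibody library within the PBS range, and the log2 fold change was −2.63 ± 0.73 (adjusted p = 0.0433). Cxcl2 stood at 0.171, 0.771 and 22 CPM with anti-IL-36R against 8.32, 24.4 and 103 CPM with PBS, again with 6 of 7 antibody libraries below every PBS library, and did not pass (−2.67 ± 0.82, adjusted p = 0.0662). Cxcl1 had medians of 3.1 CPM with anti-IL-36R and 8.02 CPM with PBS, but replicate 7 held 33 CPM, above every PBS library, and the fitted log2 fold change was 0.17 ± 0.59 (adjusted p = 0.897).

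The promoters of these 3 chemokines, in 1 region of chromosome 5, each held the NF-kB motif (the capitals below, where the fifth letter may be any base), which was in 0.556% of the 12055 promoters on either strand. The 3 genes carry the same letters in the motif, and whether it has a part in their values was not tested:
Cxcl1 (chr5:90891159-90891198, plus strand): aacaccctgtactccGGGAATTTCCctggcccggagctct
Cxcl2 (chr5:90903787-90903826, plus strand): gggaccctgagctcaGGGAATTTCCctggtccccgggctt
Cxcl3 (chr5:90786013-90786052, plus strand): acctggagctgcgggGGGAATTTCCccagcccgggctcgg
Over all genes the motif was in 3 of 390 promoters of genes that rose and in 1 of 109 of those that fell, that of Cxcl3. The grainyhead-like motif AACNGGTT was in 2.23% of all promoters, in 1.79% of those of genes that rose and in 3.67% of those of genes that fell.

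Neutrophil markers, summed, were also highest in replicate 7 among the antibody libraries. By edgeR 0 of 16 tested markers passed, with a median log2 fold change of −0.80 and 14 values below 0; 7 had an unadjusted p under 0.05, 1 fell by DESeq2 and 10 by limma-voom. They summed to 3350, 4740 and 12800 CPM with anti-IL-36R, 8420, 10900 and 16800 CPM with PBS, and 491, 1750 and 2740 CPM in water controls, and the granule genes Mpo and Elane were below the count filter. S100a9, a subunit of calprotectin that keratinocytes make too, led these sums, at 1870, 2630 and 7640 CPM with anti-IL-36R against 5200, 6770 and 11200 CPM with PBS (−1.06 ± 0.39, adjusted p = 0.123). S100a8, the other subunit, is in the list too (−0.77, adjusted p = 0.241), so the sums do not measure neutrophils alone. Trem1, a receptor of neutrophils and monocytes, stood at 0.513, 0.955 and 8.14 CPM with anti-IL-36R against 4.39, 5.15 and 16.8 CPM with PBS (−1.47 ± 0.56, adjusted p = 0.136). In S100a9 and in Trem1, 6 of 7 antibody libraries lay below every PBS library. Without anti-IL-36R replicate 7, 4 neutrophil markers and 4 of the 9 chemokine and growth factor genes fell, among them Trem1, S100a9, Cxcl2 and Csf3 (granulocyte colony-stimulating factor). Of the chemokine and growth factor genes 2 fell without replicate 3, and by edgeR 0 without anti-IL-36R replicate 1, 2, 4, 5 or 6 or PBS replicate 1, 2, 5 or 6.

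Of the 16 tested inflammatory cytokines, Il18 rose by edgeR and the others did not pass. The median log2 fold change of the 16 was −0.38, with 11 values below 0. At an unadjusted p under 0.05, 5 were lower and 1 higher. By DESeq2 2 fell and 1 rose, and by limma-voom 4 fell and 1 rose. Without anti-IL-36R replicate 7, 5 fell and 1 rose. Il18, an interleukin-1 family cytokine that keratinocytes store, (Entrez gene ID 16173, chromosome 9, 50554700 to 50581841) stood at 30.2, 61 and 74.1 CPM with anti-IL-36R, against 21.7, 25.6 and 51.1 CPM with PBS and 48.7, 65.4 and 91.4 CPM in water controls. The overlap came from antibody replicate 7, at the low end, and PBS replicate 1, at the high end, and the log2 fold change was 0.97 ± 0.20 (adjusted p = 0.0085). Il1b stood at 5.59, 10.2 and 69 CPM with anti-IL-36R against 34.4, 54.3 and 128 CPM with PBS (−1.56 ± 0.49, adjusted p = 0.0712), with 6 of 7 antibody libraries below every PBS library. Il33, an alarmin of epithelium, stood at 42.7, 111 and 298 CPM with anti-IL-36R against 199, 286 and 366 CPM with PBS (−0.97 ± 0.36, adjusted p = 0.129).

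The genes of the interleukin-23 and interleukin-17 axis, which drives IMQ inflammation in mice, gave 0 of 17 calls by edgeR and a median of 0.01. Of these, 5 had an unadjusted p under 0.05, 1 rose by DESeq2, 1 rose and 2 fell by limma-voom, and 1 rose and 3 fell without anti-IL-36R replicate 7. Il17f stood at 1.21, 2.15 and 9.03 CPM with anti-IL-36R against 2.03, 3.67 and 8.41 CPM with PBS (−0.60 ± 0.39, adjusted p = 0.391). Il22 stood at 0, 0.119 and 3.39 CPM with anti-IL-36R against 0.426, 0.81 and 3.26 CPM with PBS (−1.11 ± 0.70, adjusted p = 0.376). In both, replicate 7 was above every PBS library. The other antibody libraries lay at 1.21 to 2.45 CPM for Il17f, some of them within the PBS range. For Il22 they lay at 0 to 0.455 CPM, near or below its lowest PBS library. Il23a (−0.87, adjusted p = 0.336), Il17a (−0.45, adjusted p = 0.662), Il17c (−0.88, adjusted p = 0.228), Tnf (−0.42, adjusted p = 0.508) and Il6 (0.48, adjusted p = 0.681) did not pass. Ifng had 0 to 3 counts in every library of both groups, below the filter.

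Anti-IL-36R replicate 7 decides several of these results. Without this library 1186 genes changed, 753 higher and 433 lower, and Il1b (−2.26, adjusted p = 0.00219), Il22 (−2.95, adjusted p = 0.00325), Il17f (−1.21, adjusted p = 0.0161), Il23a (−1.67, adjusted p = 0.0226), Il33 (−1.24, adjusted p = 0.0347), Cxcl2 (−3.76, adjusted p = 0.00741) and Sprr1b (−1.08, adjusted p = 0.0273) fell. Cxcl1 and Il6 then had values of −0.78 and −0.77 and still did not pass. The labels mark nothing about this library, its depth was the highest of the 13, at 19.6 M counts, and it is part of every value given above unless said otherwise. Without replicate 6, 298 genes changed.

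**Figure D4:**
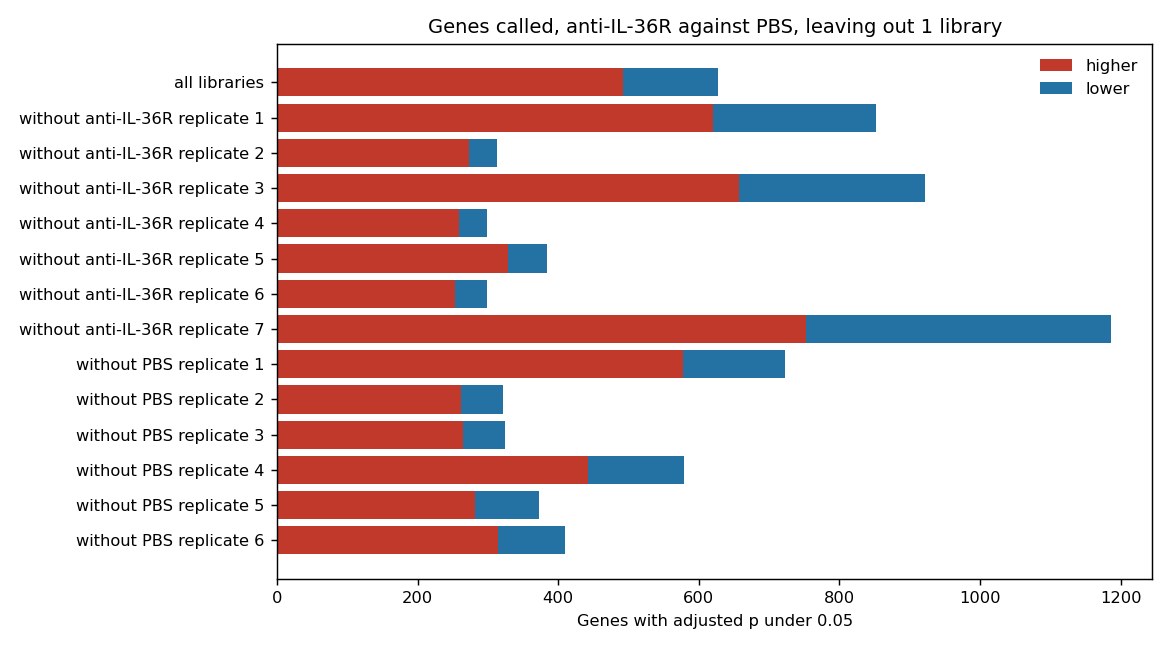
Genes that rose and fell (adjusted p under 0.05), anti-IL-36R over PBS, with all 13 libraries of the comparison and with each of them left out in turn. The total runs from 298 genes without anti-IL-36R replicate 6 to 1186 without anti-IL-36R replicate 7, and rises outnumber falls in every bar.

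Some dendritic cell genes rose. Of 16 tested markers of dendritic and Langerhans cells 6 rose, 0 fell and 10 did not pass, with a median of 0.70. Ccl22, a chemokine made by mature dendritic cells that attracts CCR4-bearing T cells, (Entrez gene ID 20299, chromosome 8, 94745684 to 94751388) stood at 7.44, 8.42 and 10.8 CPM with anti-IL-36R, against 1.75, 3.86 and 5.22 CPM with PBS and 7.08, 8.28 and 17.1 CPM in water controls. All antibody libraries were above all PBS libraries (1.26 ± 0.29, adjusted p = 0.016). Flt3, the growth factor receptor of dendritic cells and their precursors, stood at 2.87, 2.92 and 5.22 CPM with anti-IL-36R against 1.34, 1.45 and 2.91 CPM with PBS (1.04 ± 0.23, adjusted p = 0.0134). Clec9a, a receptor of the conventional dendritic cells that cross-present antigen, had 0.104, 0.446 and 0.717 CPM with anti-IL-36R and at most 0.0701 CPM in any PBS library (3.83 ± 0.91, adjusted p = 0.0192).

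The integrins Itgax (CD11c, 0.90 ± 0.22) and Itgae (CD103, 0.84 ± 0.22) and Epcam were the other 3. Itgae is also made by T cells of the epidermis and Itgax by some macrophages. Cd207, langerin, which defines Langerhans cells, did not pass (0.68 ± 0.36, adjusted p = 0.278). The 16 markers summed to 206, 270 and 347 CPM with anti-IL-36R, 137, 167 and 223 CPM with PBS, and 307, 348 and 488 CPM in water controls. Epcam was a large part of these sums, at 113, 163 and 193 CPM with anti-IL-36R against 69, 86 and 156 CPM with PBS. Because epithelium makes it too, the sums do not measure dendritic cells alone. The count of rises was 2 without PBS replicate 2 and 3 without PBS replicate 5. By edgeR it was 0 against PBS replicates 1 to 3 alone and 2 against replicates 4 to 6.

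Markers of other cell types gave few calls. Over all tested genes 4.09% changed, so 0 calls in a list of this size is near that share. It is no result about the cell type. By edgeR 0 markers passed of monocytes and macrophages (23 tested, median 0.00), T and NK cells (18, 0.51), fibroblasts (16, −0.08), endothelium (14, −0.07), adipocytes (11, 0.12), skeletal muscle (14, −0.30) and the hair follicle (15, 0.63). At an unadjusted p under 0.05 there were 3 monocyte and macrophage, 8 T and NK cell, 4 endothelial, 2 skeletal muscle and 0 fibroblast, adipocyte or hair follicle markers. By DESeq2 2 monocyte and macrophage markers fell, 3 endothelial markers fell and 4 T and NK cell markers rose, against 2, 4 and 5 by limma-voom. Without anti-IL-36R replicate 7, 3 monocyte and macrophage markers and 1 endothelial marker fell, and without replicate 1, 3 T and NK cell markers rose. Arg1, arginase-1 of macrophages and keratinocytes, was lower in all 7 antibody libraries than in any PBS library, at 6.1, 40.8 and 120 CPM against 129, 163 and 286 CPM with PBS, without passing (−1.94 ± 0.64, adjusted p = 0.0847). Of 7 melanocyte markers 1 rose, the transcription factor Mitf (0.59 ± 0.13, adjusted p = 0.0144), while the median of the 7 was −0.66. No gene passed by edgeR among the 24 of the cell cycle (median −0.16), the 19 of matrix remodelling and repair (−0.32) or the 18 of NF-kB and STAT3 feedback (−0.08). At an unadjusted p under 0.05 these lists had 5, 4 and 4 genes. By limma-voom 6 of the cell cycle fell, 4 of repair fell, and 3 of feedback fell and 2 rose; by DESeq2 1 of repair fell. Without anti-IL-36R replicate 7, 2 genes of repair and 4 of feedback fell.

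**Figure D5:**
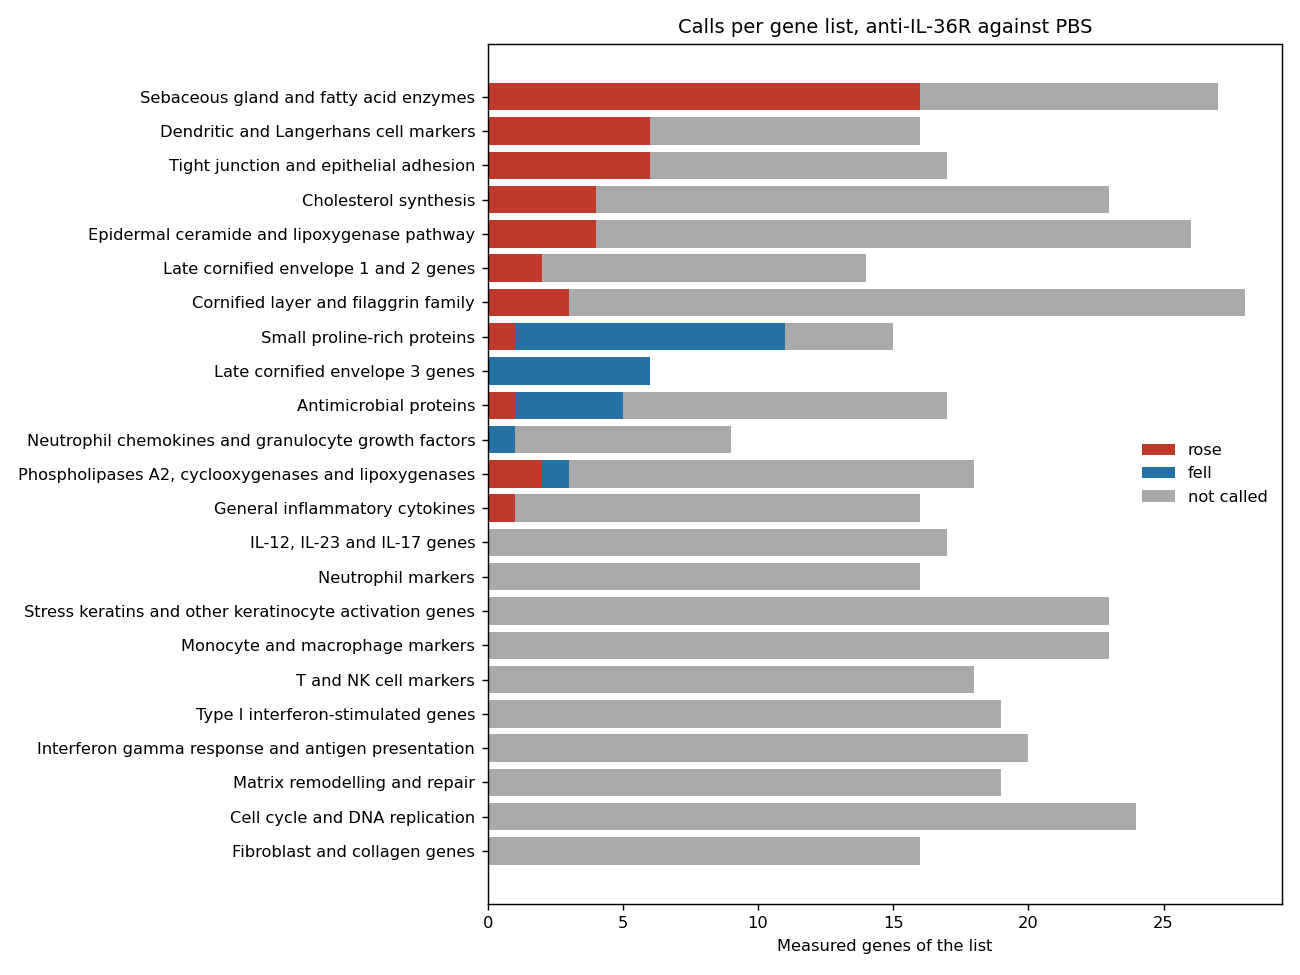
Number of tested genes that rose, did not pass or fell with anti-IL-36R over PBS in 23 gene lists. The sebaceous list holds the most rises (16), then the dendritic and tight junction lists (6 each) and the ceramide and cholesterol lists (4 each), and the falls are most in the SPRR (10), LCE3 (6) and antimicrobial (4) lists.

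Further genes changed too. Serpina3j, a serine protease inhibitor, stood at 20.6, 88.6 and 204 CPM with anti-IL-36R against 4.06, 9.9 and 28.3 CPM with PBS (2.87 ± 0.65, adjusted p = 0.0148). Cyp4f37, a cytochrome P450, stood at 2.01, 3.12 and 5.48 CPM with anti-IL-36R against 0, 0.414 and 0.882 CPM with PBS (2.85 ± 0.41, adjusted p = 0.00198), without overlap. Btc, betacellulin, a ligand of the EGF receptor, rose by 0.96 ± 0.20 (adjusted p = 0.00877), the 1 of 10 genes of that pathway to pass. The median of the 10 was −0.15, with 8 values below 0. By DESeq2 2 of the 10 fell, by limma-voom 3, and by edgeR without anti-IL-36R replicate 7, 2. Tmprss2, a transmembrane serine protease, stood at 0.454, 0.966 and 2.63 CPM with anti-IL-36R against 1.89, 4.06 and 5.7 CPM with PBS (−1.82 ± 0.34, adjusted p = 0.00476). The kallikrein proteases Klk12 (−1.44 ± 0.37, adjusted p = 0.032) and Klk10 (−0.70 ± 0.19, adjusted p = 0.0422), which cleave proteins of the outer epidermis, fell too.

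Anti-IL-36R was set against anti-IL-12p40, the other antibody given under IMQ, to see where it differed. In this test 7 of 15345 genes passed (0.0456%), 2 higher (0.013%) and 5 lower (0.0326%) with anti-IL-36R, and 806 had an unadjusted p under 0.05 (5.25%). Il17f was 1 of the 2, at 2.96 ± 2.71 CPM with anti-IL-36R (SD, n = 7) and 0.462 ± 0.255 CPM with anti-IL-12p40 (SD, n = 7), by edgeR with a log2 fold change of 2.65 ± 0.45 and an adjusted p of 0.0182. It also passed without anti-IL-36R replicate 7, at 2.04 (adjusted p = 0.00812). The other was 5830411N06Rik, and those lower with anti-IL-36R were Gcn1, Igf2bp3, 4930463O16Rik, Gm5779 and Krt13. None of the SPRR, LCE3 or sebaceous genes passed in it, so their values with anti-IL-36R are not shown to differ from those with anti-IL-12p40.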

How the data were processed

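Messenger RNA of skin was purified on beads and made into strand-specific ScriptSeq libraries, per the labels' protocols. The authors used RSEM and the mouse genome mm10, per the submitters' processing notes; versions and other steps are not given in the sources used here. The deposited skin table holds expected counts per gene. RSEM gives a read that matches several genes to each in part, so 16.69% of the values were not whole numbers (tolerance 1e-06). A symbol was found for 24375 of 24475 gene IDs. By sample number, PBS replicates 1 to 3 under IMQ sit with the water controls, while replicates 4 to 6 sit among the anti-IL-36R libraries; whether handling differed is not labelled. Testing replicates 4 to 6 against 1 to 3 with edgeR gave 0 genes, and 686 at an unadjusted p under 0.05; DESeq2 and limma were not run on them.

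The rounded counts of the 23 skin libraries in 4 groups entered 1 edgeR fit (version 4.0.16, R 4.3.3): filterByExpr, TMM factors (0.833 to 1.08) and robust quasi-likelihood F tests with 19 residual degrees of freedom. Library totals were 14.7 M to 19.7 M, and the biological coefficient of variation shared by all genes was 0.201. Adjusted p-values are Benjamini-Hochberg over all 15345 genes. SEs were obtained by dividing the size of the log2 fold change by the root of its F statistic. CPM use TMM-scaled totals. The edgeR test was also run on simulated counts. In these no library stood apart and genes varied independently, so that run is no check on the dependence on single libraries. Alternatives were DESeq2 1.42.0 size factors, no count filter, the DESeq2 Wald test, limma 3.58.1 voom with sample weights, the 13 libraries alone, PBS replicates 1 to 3 or 4 to 6 alone, and leaving out each library.

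The groups, gene lists and tests were chosen with earlier results of these data known. Named genes were the 15 largest rises and 15 largest falls with an absolute log2 fold change and a mean log2 CPM of 1 or more, as many as 4 per list, and a set of cytokines; the text prints part of them. Other members of the SPRR and LCE3 families and of other lists, and a connexin, kallikreins and further families, were added after their values were seen. Some genes are not reported here. Promoters came from RefSeq on GRCm38.p6. Plots used Python 3.11.15 and matplotlib 3.10.9.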

Additional observations from a re-analysis of the deposited data

Results flagged for a closer look

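Single libraries stood apart from the rest of their group in 26 of 240 tests. Each test took 1 gene or library measure in 1 group and looked at its lowest and highest library. A library was flagged by Dixon's test where its gap to the nearest library was large beside the range of the group. Chance flags about 1 in 20 such tests, and genes of 1 library are not independent.

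Anti-IL-36R replicate 7 was the highest antibody library for Il17a (2.03 CPM), Il17c (4.12 CPM), Il17f (9.03 CPM) and Lce3f (142 CPM) and the lowest for Il18 (30.2 CPM). Anti-IL-36R replicate 3 was the lowest for the cholesterol synthesis gene Msmo1 (239 CPM) and for Cldn3 (0 CPM).

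PBS replicate 1 accounted for 12 of the 26. It was the highest PBS library for Sprr2d (2120 CPM), Sprr2e (642 CPM), Sprr2f (329 CPM), Sprr2g (385 CPM), Sprr2h (942 CPM), Il18 (51.1 CPM), Epcam (156 CPM), Cgn (40.3 CPM), Defb1 (220 CPM), Dhcr7 (132 CPM) and Il1rl2 (29.1 CPM), and had the lowest TMM factor (0.8331). Genes of both directions were thus high in it, and whether its TMM factor moves these values was not tested.

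PBS replicate 4 was the highest PBS library for the lipid enzymes Elovl6 (323 CPM), Far2 (106 CPM) and Fa2h (160 CPM) and the lowest for Ccl22 (1.75 CPM). PBS replicate 5 was the highest for Plaur (34.8 CPM) and Trem1 (16.8 CPM), and PBS replicate 2 was the lowest for Lce1k (4.3 CPM).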

How the results depend on the processing

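The count of 628 changed genes (492 higher, 136 lower) was 1112 by the DESeq2 Wald test (756 and 356), 2750 by limma-voom (1533 and 1217), 106 against PBS replicates 1 to 3 alone (76 and 30) and 50 against replicates 4 to 6 alone (47 and 3), where fewer libraries are compared. Over the 13 libraries alone 424 changed (316 higher); there, 2 rather than 6 tight junction genes and 2 rather than 4 ceramide genes rose, and 2 rather than 4 antimicrobial genes fell; size factors gave 619 and no filter 514. Leaving out each library gave 298 to 1186 genes, 253 to 753 higher and 40 to 433 lower. The low counts were without anti-IL-36R replicates 2 (313), 4 (299), 5 (384) or 6 (298) or PBS replicates 2 (321), 3 (324), 5 (372) or 6 (410). The 7 genes between the antibodies were 22 by DESeq2 and 3 to 8 over left-out libraries. Of the called genes 250 passed with every library left out and 9 under all 20 alternatives; of the 83 called genes named, Krt79 and Cyp4f37 did. Signs turned, never with a call, for Il1rl2 (0.06 by limma-voom, 0.08 against PBS replicates 4 to 6, −0.05 to 0.08 over left-out libraries), Il1f5 (−0.11 against PBS replicates 1 to 3), Il6 (−0.68 by limma-voom, −0.77 to 0.69), Cxcl1 (−0.69 by limma-voom, −0.78 to 0.36) and Il17a (−1.14 to 0.11); apart from the fewer libraries, the cause was not tested. No paired analysis was possible because the replicate numbers follow the order of the samples and pair none. At these depths genes of a few counts, such as Ifng, could not be tested.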

Other observations

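Gene families outside the lists were looked at after their values were seen, so they are given as values. The shares over all tested genes, to set beside the counts below, were 3.21% that rose and 0.886% that fell. Of 11 tested arylacetamide deacetylases and relatives, which are esterases that split lipid esters, 8 rose and 0 fell, with a median log2 fold change of 1.91. Aadac stood at 49.9, 66.3 and 87.2 CPM (lowest, median and highest) with anti-IL-36R against 21.7, 30 and 40 CPM with PBS (1.13 ± 0.20, adjusted p = 0.00391). Aadacl4, a relative on chromosome 4, stood at 11.5, 21.3 and 54.2 CPM with anti-IL-36R against 0.975, 3.34 and 7.84 CPM with PBS (2.71 ± 0.50, adjusted p = 0.00476), and AAdacl4fm3 rose by 3.0 ± 0.50. None of these 3 overlapped between the groups.

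Skint genes code for membrane proteins of the epidermis and thymus, the founding member of which selects the gamma delta T cells of mouse epidermis. Of 11 tested 5 rose and 0 fell, with a median of 1.68. They were Skint5 (2.95 ± 0.84, adjusted p = 0.0487), Skint9 (2.94 ± 0.76, adjusted p = 0.0313), Skint4 (1.53 ± 0.35, adjusted p = 0.0156), Skint10 and Skint11. With each of the 13 libraries left out in turn, Skint5 passed in 3 of the 13 fits by edgeR, Skint9 in 5 and Skint4 in 13. Of 40 cytochrome P450 genes 6 rose and 1 fell, of 11 kallikrein-related peptidases 0 rose and 3 fell, and of 5 beta-defensins 1 rose and 3 fell. Over all tested genes 3.21% rose and 0.886% fell, and families picked by their values give no test against these shares.

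In some lists the values lay on 1 side of 0 although 0 genes passed by edgeR. All 20 genes of the interferon gamma response and antigen presentation were above 0 (median 0.43), as were 18 of 19 type I interferon-stimulated genes (0.34) and all 18 T and NK cell markers (0.51). All 24 cell cycle genes were below 0 (−0.16), as were 18 of 19 genes of matrix remodelling and repair (−0.32). At an unadjusted p under 0.05 the 5 lists had 9, 6, 8, 5 and 4 genes; by DESeq2 1, 1, 4, 0 and 1 passed and by limma-voom 4, 3, 5, 6 and 4. Genes of a list move together in a library, so these counts are no test.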
